A study of Microtus ochrogaster with 40 samples.

Results

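Serotonin receptors were followed in single-nucleus RNA sequencing of the nucleus accumbens, a ventral striatal region, of 40 prairie voles (Microtus ochrogaster). The genes were taken by symbol from a list of 9, namely Htr1a, Htr1b, Htr1d, Htr1f, Htr2a, Htr2c, Htr4, Htr6 and Htr7. The symbols of 7 were matched among the 19130 genes of the deposited matrices, and Htr1d and Htr6 were not analysed here. Every vole had lived for 16 days with a new partner, which was of the opposite sex (mate) or of the same sex (peer). There were 11 female mates, 8 female peers, 11 male mates and 10 male peers, and each library came from a single animal. The labels name no genotype or drug treatment, do not give the animals' ages and do not say which animals lived together, so animals that shared a cage could not be treated as linked.

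Serotonin reaches the striatum in axons of raphe neurons, and its receptors differ in what they do inside the cell. Receptors of the HTR1 family act through inhibitory G proteins and lower cyclic AMP, those of the HTR2 family activate phospholipase C, and HTR4, HTR6 and HTR7 act through stimulatory G proteins and raise cyclic AMP. Medium spiny neurons, the output neurons of the striatum, are divided into D1 and D2 types by their dopamine receptor, and the less common eccentric type departs from both in its marker genes.

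A kept nucleus had at least 500 unique molecular identifiers (UMIs, each standing for 1 captured RNA molecule), at most 5% mitochondrial UMIs and no doublet call. These filters left 178387 nuclei and 315734561 UMIs, with 1767 to 7666 nuclei and 2891655 to 12747472 UMIs per library. Nuclei were clustered without the receptor genes, and the clusters were named from marker lists, giving 13 named classes and 8 unnamed clusters, the latter with 17.1% of nuclei. The dopamine receptor genes separated the D1 and D2 classes, with Drd1a at 951 CPM (counts per 1000000 UMIs) in nuclei named D1 and 19.4 CPM in those named D2, and Drd2 at 5.23 CPM and 366 CPM. They did not separate the D1 from the eccentric class, which had Drd1a at 833 CPM (954 CPM in its Foxp2-led and 362 CPM in its Col14a1-led cluster) and Drd2 at 6.13 CPM. Of the libraries, 3 stood apart: male mate 2 had the fewest UMIs per nucleus (median 652, highest library 2131.5) and 39.8% glutamate neuron-like nuclei, female peer 1 had 48.5% in unnamed clusters, and male peer 5 had 0.485% glutamate neuron-like and 58.1% spiny nuclei. Barcode sequences shared by a pair of libraries numbered 30 in the median over 780 pairs, or 0.771% of the smaller library. Levels below are CPM of the UMIs summed over an animal's nuclei of a class, averaged over the animals with at least 20 such nuclei, and differences between classes or clusters are described without a test.

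Among the named classes Htr4 was highest in D2 spiny neurons, followed by the D1 type. Its product raises cyclic AMP. In D2 medium spiny neuron-like nuclei the lowest animal had 147 CPM, the median animal 202 CPM and the highest 279 CPM, with a mean of 206 ± 38.4 CPM (n = 40, SD). D1 medium spiny neuron-like nuclei were at 37.4 CPM in the lowest animal, 73.2 CPM in the median animal and 177 CPM in the highest, with a mean of 77.2 ± 30.5 CPM (n = 40, SD). The D2 value exceeded the D1 value in 40 of 40 animals, by 129 ± 29.8 CPM (SD). The D1 value in turn exceeded that of eccentric medium spiny neuron-like nuclei, 24.7 ± 11.4 CPM (n = 40, SD), in 40 of 40. Glutamate neuron-like nuclei held 5.54 ± 3.27 CPM (n = 40, SD) and astrocyte-like nuclei, the lowest class, 1.59 ± 1.89 CPM (n = 39, SD). Other non-neuronal classes were above the glutamate neuron-like mean, with microglia-like nuclei at 15.5, endothelial-like at 13.6 and oligodendrocyte-like at 8.72 CPM. With each nucleus thinned to 500 UMIs, 9.90% of D2 medium spiny neuron-like nuclei had an Htr4 UMI, against 0.0804% of astrocyte-like nuclei. Before thinning the shares were 33.5% at a median of 2000 UMIs per nucleus and 0.138% at a median of 774 UMIs. Immature neuron-like nuclei averaged 36.2 ± 65.1 CPM (n = 40, SD), a mean raised by male peer 5 at 338 CPM, while their median was 13.4 CPM. An unnamed cluster of 7385 nuclei led by Gng7 and mitochondrial genes was at 88.4 ± 38.3 CPM (n = 40, SD), near the D1 class. Its thinned share was 4.85%, against 3.88% in the D1 class. The unthinned shares had the opposite order, 8.61% against 14.5%, at a median of 755 UMIs per nucleus against 2025.

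Htr7, which also encodes a receptor that raises cyclic AMP, had another distribution. An unnamed cluster whose leading genes were Kcnc2, Grik1, Elfn1, Pvalb and Sst, several of them interneuron markers, held 93.7 ± 28.3 CPM (n = 40, SD), from 34.4 CPM through a median of 92.4 CPM to 150 CPM. This cluster, called Kcnc2-led below, provided 37.4% of all Htr7 UMIs. A second unnamed cluster led by Vip and Crabp1 was at 40.1 ± 18.7 CPM (n = 39, SD), somatostatin interneuron-like nuclei at 29.1 ± 25.1 CPM (n = 31, SD) and cholinergic interneuron-like nuclei at 25.1 ± 22.6 CPM (n = 25, SD). The values of the last 2 classes overlapped widely and included animals with no Htr7 UMI, 4 of 31 and 3 of 25. Glutamate neuron-like nuclei averaged 15.6 ± 9.30 CPM (n = 40, SD), and their Slc30a3-led cluster (22.2 ± 12.8 CPM, n = 39, SD) was above the Rxfp2-led cluster (4.49 ± 3.98 CPM, n = 39, SD) and the Nr4a2-led one (1.16 ± 3.25 CPM, n = 22, SD). Over whole spiny classes Htr7 was low, at 9.52 CPM in the D2, 4.59 CPM in the eccentric and 2.32 CPM in the D1 class, beside 0.733 CPM in astrocyte-like nuclei.

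**Figure D1:**
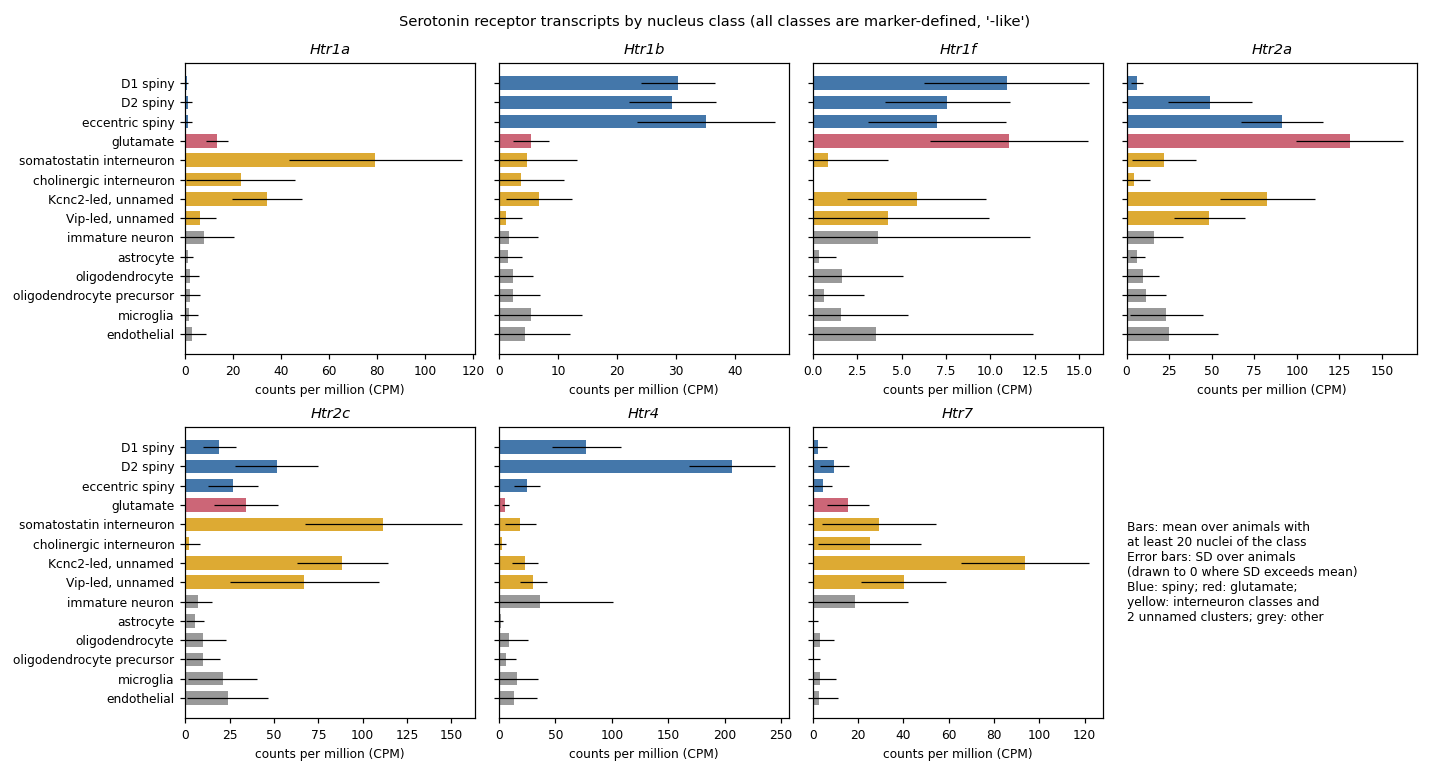
Mean level of each receptor gene (x axis, CPM) in 12 marker-named classes and 2 unnamed clusters (y axis), with the SD over animals as error bars. Htr4 is highest in the D2 class (206 CPM), Htr2a in glutamate neuron-like nuclei (131 CPM), Htr1a and Htr2c in somatostatin interneuron-like nuclei (79.3 and 112 CPM), and Htr7 in the Kcnc2-led cluster (93.7 CPM).

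Htr2a encodes the phospholipase C-coupled receptor known as a target of psychedelic drugs and of many antipsychotic drugs. Its level was highest among the named classes in glutamate neuron-like nuclei, at 65.6 CPM in the lowest animal, 135 CPM in the median animal and 198 CPM in the highest, with a mean of 131 ± 31.4 CPM (n = 40, SD). Eccentric medium spiny neuron-like nuclei followed at 91.3 ± 24.1 CPM (n = 40, SD) and were lower in 35 of 40 animals. An unnamed cluster of 9705 nuclei led by Stmn1 and Cck was near them, at 92.2 ± 26.7 CPM (n = 39, SD). All 7 glutamate neuron markers found had a log2 fold of at least 1 in this cluster. It stayed unnamed because another marker list led among its leading genes. D2 medium spiny neuron-like nuclei were at 49.2 ± 24.8 CPM (n = 40, SD), with animals from 19.2 to 128 CPM, and D1 nuclei at 6.32 ± 3.49 CPM (n = 40, SD), close to the 6.17 CPM of astrocyte-like nuclei. D2 values exceeded D1 values in 40 of 40 animals. Glutamate neuron-like nuclei provided 44.1% of Htr2a UMIs, spiny nuclei 32.6% and the Stmn1-led cluster 9.61%. The dissection was by punch, and whether glutamate neuron-like nuclei lay in the accumbens or in neighbouring tissue was not tested. Glutamate neuron-like nuclei carried Slc17a7 at 2172 CPM, Slc30a3 at 163 CPM, Tbr1 at 156 CPM and Neurod6 at 111 CPM. Per library, their share of nuclei had a median of 11.2%, a lowest value of 0.485% and a highest of 39.8%. Levels and comparisons of this class are therefore not assigned to accumbens neurons. Microglia-like nuclei were listed at 23.4 ± 21.2 CPM (n = 40, SD), and in the same class Drd1a stood at 112 CPM and the glutamate neuron gene Slc17a7 at 209 CPM.

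Htr2c, the second phospholipase C-coupled receptor gene of the list, was highest among the named classes in somatostatin interneuron-like nuclei. Its level there was 24.7 CPM in the lowest animal, 116 CPM in the median animal and 188 CPM in the highest, with a mean of 112 ± 44.0 CPM (n = 31, SD). Of the unnamed clusters, the Kcnc2-led one held 88.6 ± 25.5 CPM (n = 40, SD), the Vip-led one 67.2 ± 42.0 CPM (n = 39, SD), the Stmn1-led one 65.4 ± 27.3 CPM (n = 39, SD) and the Gng7-led one 43.3 ± 21.3 CPM (n = 40, SD). D2 medium spiny neuron-like nuclei were at 51.6 ± 23.3 CPM (n = 40, SD) and D1 nuclei at 19.3 ± 9.15 CPM (n = 40, SD), and the D2 value was the higher in 40 of 40 animals. The D1 level was near those of endothelial-like nuclei, 24.0 CPM, and microglia-like nuclei, 21.3 CPM. The microglia-like value was above the D1 value in 19 of 40 animals. After thinning, 5.30% of somatostatin interneuron-like nuclei had an Htr2c UMI, against 0.246% of astrocyte-like nuclei. The unthinned shares were 18.9% and 0.429%, at medians of 1907 and 774 UMIs per nucleus. Among glutamate neuron-like nuclei the Slc30a3-led cluster (42.8 ± 24.3 CPM, n = 39, SD) was above the Rxfp2-led one (6.85 ± 7.52 CPM, n = 39, SD). The smaller Nr4a2-led cluster, where Htr7 was low, had 58.7 ± 28.5 CPM of Htr2c (n = 22, SD). Cholinergic interneuron-like nuclei had 2.42 CPM, below the 5.41 CPM of astrocyte-like nuclei.

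Of the HTR1 genes, Htr1b was found in all 3 types of spiny neuron at close levels. Its product is known as a receptor on axon terminals that reduces transmitter release, and the RNA counted here lay in nuclei. Eccentric, D1 and D2 medium spiny neuron-like nuclei held 35.2 ± 11.7, 30.3 ± 6.26 and 29.4 ± 7.41 CPM (n = 40 each, SD). Neighbours in this order did not differ beyond their spread, meaning that the mean within-animal difference was less than its SD over animals. The differences were 4.84 ± 12.1 CPM (SD, eccentric higher in 28 of 40 animals) and 0.931 ± 5.53 CPM (SD, D1 higher in 23 of 40). Glutamate neuron-like nuclei were at 5.46 ± 3.05 CPM (n = 40, SD), below D2 nuclei in 40 of 40 animals. Microglia-like nuclei had a close mean of 5.37 CPM, and astrocyte-like nuclei, the lowest class, were at 1.53 CPM. Spiny nuclei provided 86.0% of the Htr1b UMIs and 89.7% of the Htr4 UMIs.

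Htr1a, an inhibitory receptor gene best known from raphe, hippocampal and cortical neurons, was low in spiny nuclei, between 0.567 and 1.28 CPM in the 3 classes, around the 1.36 CPM of astrocyte-like nuclei. Somatostatin interneuron-like nuclei held 24.7 CPM in the lowest animal, 70.0 CPM in the median animal and 142 CPM in the highest, with a mean of 79.3 ± 35.9 CPM (n = 31, SD). They exceeded cholinergic interneuron-like nuclei, 23.2 ± 22.7 CPM (n = 25, SD), in 24 of the 24 animals with both. The Kcnc2-led cluster was at 34.2 ± 14.6 CPM (n = 40, SD) and glutamate neuron-like nuclei at 13.2 ± 4.67 CPM (n = 40, SD). Since glutamate neuron-like nuclei were many, they provided 35.5% of the Htr1a UMIs, the Kcnc2-led cluster 25.7% and somatostatin interneuron-like nuclei 10.6%. After thinning, 4.01% of somatostatin interneuron-like nuclei had an Htr1a UMI (14.2% unthinned), against 0.0661% of astrocyte-like nuclei (0.110% unthinned), at the same median depths as for Htr2c.

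Htr1f, whose human counterpart is a target of migraine drugs, was found at low levels. Glutamate neuron-like nuclei held 11.1 ± 4.47 CPM, D1 10.9 ± 4.64 CPM, D2 7.58 ± 3.53 CPM and eccentric medium spiny neuron-like nuclei 6.99 ± 3.89 CPM (n = 40 each, SD). No 2 neighbours in this order differed beyond their spread within animals. Even so, the D1 value was above the D2 value in 32 of 40 animals, by 3.34 ± 4.16 CPM (SD). The glutamate neuron-like value was above the D1 value in 18 of 40, and the D2 above the eccentric value in 25 of 40. Cholinergic interneuron-like nuclei had no Htr1f UMI among 1006 nuclei and 2393331 UMIs, where 3 counts would be 1.25 CPM. Counting limits and intervals cover counting error only. Astrocyte-like nuclei were at 0.349 CPM.

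**Figure D2:**
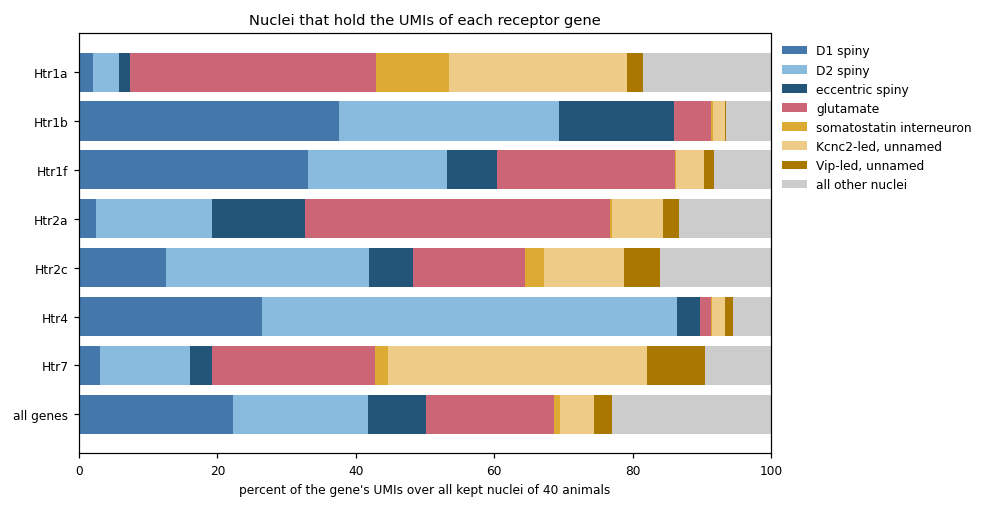
Share of the UMIs of each receptor gene (x axis, percent over all kept nuclei of 40 animals) by class or cluster of nuclei (coloured segments), with the UMIs of all genes as the last bar. Spiny nuclei hold 89.7% of Htr4 and 86.0% of Htr1b UMIs but 7.39% of Htr1a UMIs, and the Kcnc2-led cluster holds 37.4% of Htr7 UMIs.

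The spiny classes were made of 7 clusters, and for Htr2a and Htr7 the D2 class was divided between its clusters. D2 medium spiny neuron-like nuclei fell into a large cluster led by Adora2a (22995 nuclei) and a smaller one led by Cpne7 (5467 nuclei). In the Cpne7-led cluster Htr2a was at 83.4 CPM in the lowest animal, 219 CPM in the median animal and 422 CPM in the highest, with a mean of 221 ± 71.9 CPM (n = 40, SD). The Adora2a-led cluster was at 6.87 ± 5.61 CPM (n = 40, SD), a level like that of the D1 clusters, which lay between 4.03 and 12.3 CPM. The ranges of the Cpne7-led and Adora2a-led clusters did not overlap, and the within-animal difference was 214 ± 72.3 CPM (SD), higher in the Cpne7-led cluster in 40 of 40 animals. The Cpne7-led level was also above that of the Foxp2-led eccentric cluster, 91.4 ± 26.4 CPM (n = 40, SD), in 40 of 40 animals, and the Col14a1-led eccentric cluster was at 90.6 ± 39.2 CPM (n = 39, SD).

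Htr7 was at 36.3 ± 19.4 CPM (n = 40, SD) in the Cpne7-led cluster, with animals from 5.96 to 94.4 CPM, and at 2.80 ± 4.32 CPM (n = 40, SD) in the Adora2a-led cluster. The Cpne7-led value was the higher in 39 of 40 animals. Htr4 was at 275 ± 45.1 CPM (n = 40, SD) in the Cpne7-led and 188 ± 39.6 CPM (n = 40, SD) in the Adora2a-led cluster, again with the former higher in 39 of 40. For Htr2c the order of the means was the opposite, 38.9 ± 19.3 CPM (n = 40, SD) and 54.3 ± 26.0 CPM (n = 40, SD). These Htr2c values did not differ beyond their spread, by 15.4 ± 24.6 CPM (SD), with the Adora2a-led value higher in 30 of 40 animals. Htr1b means were 38.5 ± 17.3 and 27.1 CPM, and those of Htr1f 4.76 and 8.18 CPM.

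Some markers of the 2 D2 clusters differed as well. Drd2 was at 387 ± 86.3 CPM (n = 40, SD) in the Cpne7-led and 361 ± 73.4 CPM (n = 40, SD) in the Adora2a-led cluster, while Penk, which encodes enkephalin, was at 584 and 6925 CPM. Of the other D2 markers, Ptprm was at 32.9 and 202 CPM and Adora2a at 779 and 983 CPM, and Gpr6, Grik3, Gucy1a1 and Sp9 differed by less than 1.5-fold. Tac1, which encodes substance P and is on the D1 list, was at 1226 and 51.6 CPM. Of the other D1 markers, Pdyn was at 24.4 and 10.8 CPM, Drd1a at 18.5 and 20.4 CPM and Sfxn1 at 39.9 and 39.1 CPM, with Isl1, Eya1 and Ebf1 at 1.03 CPM or less in both clusters. The eccentric marker Otof was at 60.6 and 3.28 CPM, and of the others on that list Oprm1 was at 116 and 199 CPM while Cacng5, Col11a1, Col14a1, Foxp2, Pcdh8 and Tshz1 had the higher mean in the Cpne7-led cluster. The 7 glutamate neuron markers found summed to 33.9 CPM in the Cpne7-led cluster (0 to 83.6 CPM over animals) and 33.2 CPM in the Adora2a-led cluster (1.99 to 79.6 CPM), against 2697 CPM in glutamate neuron-like nuclei. The 5 somatostatin interneuron markers summed to 159 CPM (53.8 to 504 CPM) and 43.2 CPM (14.5 to 102 CPM), against 4128 CPM in the Kcnc2-led cluster. The 5 parvalbumin interneuron markers found summed to 6.82 and 6.57 CPM, against 896 CPM in the Kcnc2-led cluster. The part of interneuron RNA in the Htr2a and Htr7 levels of the Cpne7-led cluster was not tested. The Kcnc2-led cluster itself held less Htr2a than the Cpne7-led one, 82.7 ± 28.1 CPM (n = 40, SD), and more Htr7, 93.7 CPM against 36.3 CPM.

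Among the D1 clusters Htr4 was at 97.1 ± 33.4 CPM (n = 40, SD) in the Col24a1-led, 61.2 ± 33.0 CPM (n = 40, SD) in the Pdyn-led and 46.9 ± 27.7 CPM (n = 38, SD) in the Dlk1-led cluster. The Col24a1-led value was above the Pdyn-led value in 39 of 40 animals. The Pdyn-led and Dlk1-led values did not differ beyond their spread, by 15.1 ± 32.2 CPM (SD), with the former higher in 25 of 38. Htr2c had the reverse order in the larger 2 of these clusters, with means of 13.1 CPM in the Col24a1-led and 27.8 CPM in the Pdyn-led cluster. Htr1b was at 32.5 ± 9.86 CPM (n = 40, SD) in the Pdyn-led, 29.8 CPM in the Col24a1-led and 17.9 ± 12.2 CPM (n = 38, SD) in the Dlk1-led cluster. In the 2 eccentric clusters the means of Htr4 were lowest, at 28.4 ± 13.0 CPM (n = 40, SD) in the Foxp2-led and 9.89 ± 11.6 CPM (n = 39, SD) in the Col14a1-led one. The Col14a1-led mean of Htr4 was below the 15.5 CPM of microglia-like nuclei. Htr1b was at 38.2 ± 14.3 CPM in the Foxp2-led and 23.9 CPM in the Col14a1-led cluster.

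**Figure D3:**
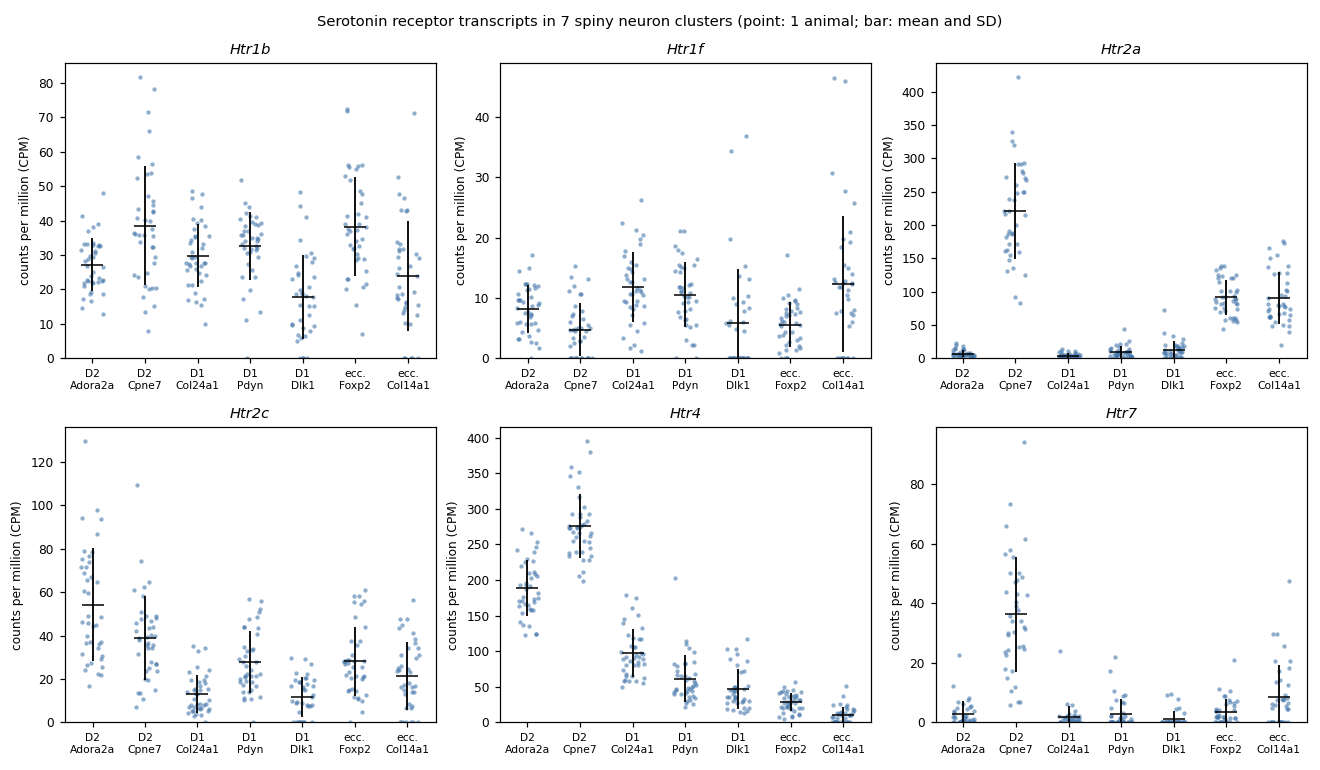
Level of 6 receptor genes (y axis, CPM) in 7 spiny neuron clusters (x axis), with 1 point per animal and the mean and SD over animals. Htr2a and Htr7 are high in the Cpne7-led D2 cluster (means 221 and 36.3 CPM) and low in the Adora2a-led D2 cluster (6.87 and 2.80 CPM), while the means of Htr4 decline from D2 through D1 to eccentric clusters.

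Genes whose profile over the 25 clusters of at least 200 nuclei was most like that of a receptor are given as a description, by Pearson's r of log2(CPM + 5). The clusters share libraries and differ in depth, and genes were chosen as the 3 of highest r. Htr1a was closest to Chrm2, a muscarinic acetylcholine receptor gene (r = 0.92), then P2rx2 and Sytl1 (0.88 each). Htr1b was closest to Lingo3 and Krtcap3 (0.94 each) and Mchr1 (0.93), the gene of a melanin-concentrating hormone receptor. Htr4 was closest to Ppp1r2 (0.90), the unnamed gene ENSMOCG00000004277 (0.89) and Ranbp17 (0.88). Htr2a was closest to Pcsk1 (0.88), Sstr3 (0.86) and Rxfp1 (0.85), and Rxfp1 is itself among the leading genes of the Cpne7-led D2 cluster. Htr7 was closest to Galntl6 (0.90), Cpne7 (0.82) and Zmat4 (0.80). For Htr2c they were Iqsec1 (0.80), ENSMOCG00000001220 (0.79) and Dgkg (0.77), and for Htr1f Fam78b (0.85), Shisa9 and Plekha5 (0.84 each). Between the receptors themselves r was 0.76 for Htr1b with Htr4, 0.68 for Htr1a with Htr7, and 0.52 both for Htr2a with Htr2c and for Htr1b with Htr1f.

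Mates and peers were then compared, with the partner's sex type as the question of the design. No receptor gene was called over all nuclei by edgeR's quasi-likelihood test at an adjusted p of 0.05, and 0% of the 13682 genes tested were called. In this test 1 of 7 receptor genes had an unadjusted p under 0.05, where 7.17% of all genes did, and DESeq2 called 0 of 7 with 1 under an unadjusted 0.05. The count was 2 of 7 without male peer 5, and also with blocks of library numbers or the glutamate neuron-like share of UMIs as a covariate. Shares over all genes are those of the main fit here and below, so counts from alternative fits cannot be set against them. The median log2 fold change of mates over peers was 0.08 over the 7 genes, 4 above and 3 below 0, and -0.0048 over all genes, of which 48.0% were above 0. A sum over all nuclei does not by itself tell fewer nuclei of a class from less RNA per nucleus, and levels within classes are compared below.

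Htr1a had the lowest unadjusted p of the 7 over all nuclei. Mates had 3.14 CPM in the lowest, 6.17 CPM in the median and 11.2 CPM in the highest animal (mean 6.27 ± 1.86 CPM, n = 22, SD). Peers had 3.93, 6.92 and 13.1 CPM (mean 7.79 ± 2.30 CPM, n = 18, SD), and the groups overlapped over most of their range. The log2 fold change was -0.32 with a standard error of 0.13 (edgeR p 0.0178, adjusted p 0.693). In females alone the means were 5.64 ± 1.34 CPM (n = 11, SD) in mates, from 4.00 to 7.87 CPM, and 8.51 ± 1.75 CPM (n = 8, SD) in peers, from 6.5 to 10.7 CPM. Their log2 fold change was -0.58 with a standard error of 0.18 (edgeR p 0.00312, adjusted p 0.644). In males the means were 6.91 and 7.22 CPM, and the interaction of partner and sex was -0.53 with a standard error of 0.26 (edgeR p 0.0444, adjusted p 1.00). That unadjusted p was no longer under 0.05 without male mate 2 or without male peer 5. The share of nuclei in the spiny classes, where Htr1a is near 0, moved with these groups: female mates had 45.1 ± 9.48% (n = 11, SD), female peers 35.2 ± 11.0% (n = 8, SD), male mates 41.5 ± 8.94% (n = 11, SD) and male peers 41.9 ± 11.8% (n = 10, SD). Within glutamate neuron-like nuclei, the only class where Htr1a passed the filter on low counts, the log2 fold change was -0.19 with a standard error of 0.15 (edgeR adjusted p 0.855). Beyond the fit with the glutamate neuron-like share of UMIs as a covariate, the part of nuclear composition in the value over all nuclei was not tested.

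Htr1b had the second lowest p over all nuclei, in the other direction. Mates had a mean of 19.7 ± 4.90 CPM (n = 22, SD), from 13.6 through a median of 18.6 to 30.3 CPM. Peers had 16.7 ± 5.81 CPM (n = 18, SD), from 9.22 through 16.9 to 32.8 CPM, so the groups overlapped (log2 fold change 0.25, SE 0.13, edgeR adjusted p 0.695). Most Htr1b UMIs were in spiny nuclei, whose shares are given above. The other 5 genes had log2 fold changes between -0.09 and 0.11. For Htr4, mates were at 67.5 ± 15.7 CPM (n = 22, SD) and peers at 64.1 ± 27.8 CPM (n = 18, SD). For Htr2c, mates were at 36.8 ± 9.44 CPM (n = 22, SD) and peers at 36.9 ± 13.9 CPM (n = 18, SD).

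**Figure D4:**
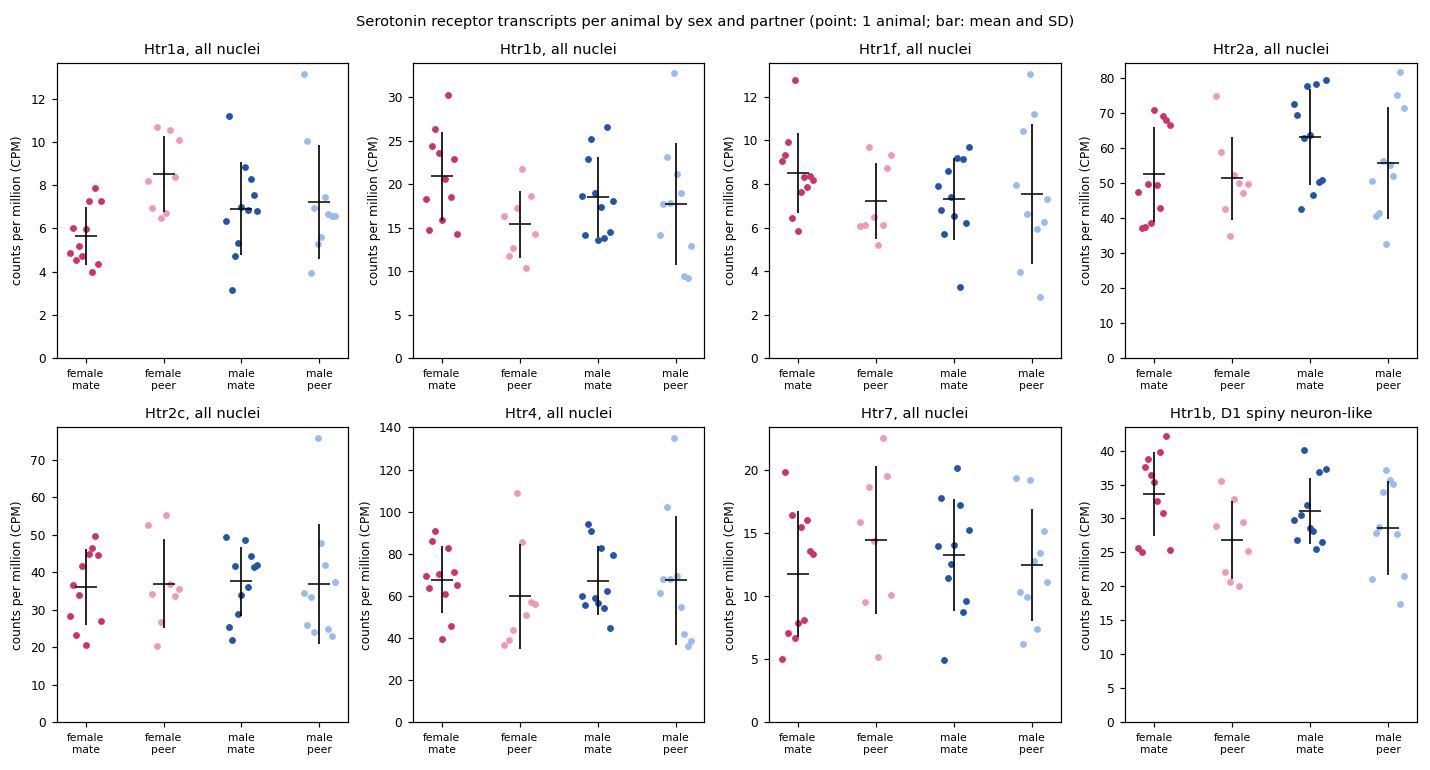
Level of each receptor gene over all nuclei, and of Htr1b in D1 medium spiny neuron-like nuclei (y axes, CPM), by sex and partner (x axis), with 1 point per animal and the group mean and SD. The groups overlap in most panels, and Htr1a is lower in female mates (5.64 CPM) than in female peers (8.51 CPM) without passing the adjusted threshold.

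Within classes the receptor genes gave 23 pairs of a gene and a class that passed the filter on low counts, in 5 of the 11 classes tested. All 7 genes were in at least 1 pair. None of the 23 was called for partner (0% of 71773 pairs over all genes), and DESeq2 also called none. An unadjusted edgeR p under 0.05 was found in 1 of 23 pairs, a share of 4.35%, where 5.53% of all pairs had one, and by DESeq2 in 1. This count was 3 of 23 without male peer 5, and likewise with blocks of library numbers as a covariate, fits whose share over all genes is not given. The log2 fold change was above 0 in 19 pairs and below 0 in 4, with a median of 0.10. Over all genes of a class the median lay between -0.0147 and 0.0047 over the 11 classes, and 45.8% to 51.7% of genes were above 0. Classes of an animal share a library, so the 23 values are not independent.

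The pair with an unadjusted p under 0.05 was Htr1b in D1 medium spiny neuron-like nuclei. Mates had 25.1 CPM in the lowest, 31.5 CPM in the median and 42.2 CPM in the highest animal (mean 32.4 ± 5.57 CPM, n = 22, SD). Peers had 17.4, 28.3 and 37.2 CPM (mean 27.8 ± 6.29 CPM, n = 18, SD). The log2 fold change was 0.21 with a standard error of 0.10 (edgeR p 0.0308, adjusted p 0.918). The lowest peers lay below all mates, and the upper parts of the groups overlapped. In D2 medium spiny neuron-like nuclei Htr1b had a log2 fold change of 0.20 (SE 0.11), in eccentric ones -0.07 (SE 0.14) and in glutamate neuron-like ones 0.04 (SE 0.22).

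Htr4 in D2 medium spiny neuron-like nuclei, the class of its highest level, had close means in both kinds of pair. Mates had 147 CPM in the lowest, 207 CPM in the median and 275 CPM in the highest animal, and peers 148, 194 and 279 CPM. The means were 207 ± 37.0 CPM (n = 22, SD) and 206 ± 41.2 CPM (n = 18, SD), with a log2 fold change of 0.0042 and a standard error of 0.08. In D1 nuclei the Htr4 log2 fold change was 0.0046 with a standard error of 0.16. Htr2a in glutamate neuron-like nuclei had means of 139 ± 32.5 CPM (n = 22, SD) and 121 ± 27.6 CPM (n = 18, SD), with a log2 fold change of 0.16 (SE 0.10, adjusted p 0.803 in edgeR). Htr2c in somatostatin interneuron-like nuclei had means of 113 ± 37.0 CPM (n = 17, SD) and 111 ± 52.8 CPM (n = 14, SD), with a log2 fold change of 0.05 (SE 0.21).

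The other pairs of a receptor gene and a class had these log2 fold changes. Htr1f was at 0.18 (SE 0.20) in D1, 0.11 (SE 0.22) in D2 and 0.16 (SE 0.17) in glutamate neuron-like nuclei. Htr2a was at 0.26 (SE 0.25) in D1, 0.31 (SE 0.18) in D2 and 0.01 (SE 0.11) in eccentric nuclei. Htr2c was at 0.30 (SE 0.20) in D1, 0.03 (SE 0.19) in D2, 0.10 (SE 0.21) in eccentric and 0.0012 (SE 0.20) in glutamate neuron-like nuclei. Htr4 was at -0.02 (SE 0.20) in eccentric and -0.28 (SE 0.24) in glutamate neuron-like nuclei. Htr7 was at 0.17 (SE 0.26) in D2 and 0.22 (SE 0.22) in glutamate neuron-like nuclei. Each of these values lay within 2 standard errors of 0, which restates the same test, since the standard error was derived from its F statistic.

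**Figure D5:**
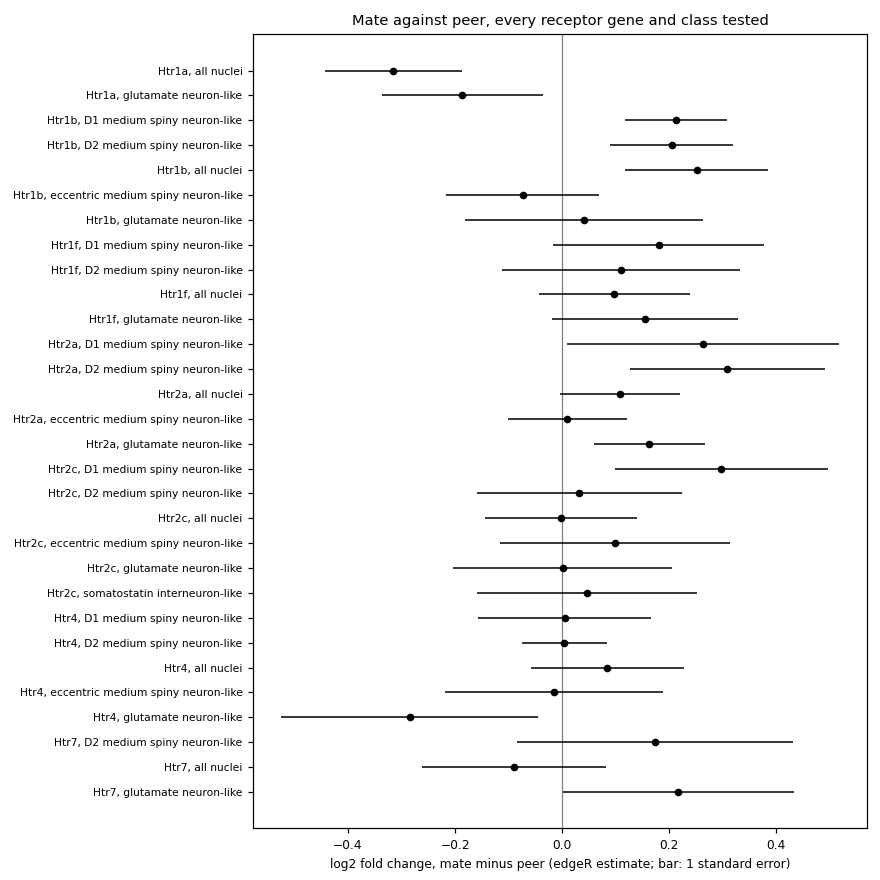
Log2 fold change of mates over peers (x axis, edgeR estimate) for the 7 receptor genes over all nuclei and the 23 pairs of a gene and a class that passed the filter (y axis). Bars are 1 standard error, derived from the test's F statistic. None was called. The lowest value is that of Htr1a over all nuclei (-0.32), and the highest that of Htr2a in D2 medium spiny neuron-like nuclei (0.31).

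Within the spiny clusters 25 pairs of a receptor gene and a cluster were tested, over 6 genes, and none was called (0% of 55103 pairs over all genes). An unadjusted p under 0.05 was found in 2 of 25 pairs by edgeR, a share of 8% against 4.78% over all genes, and in 3 by DESeq2. In edgeR the count was 4 of 25 without male peer 5, and likewise with blocks of library numbers. The share over all genes in those fits is not given here, so these counts cannot be set against it. One of the 2 in edgeR was Htr2a in the Adora2a-led D2 cluster, at 8.82 ± 6.31 CPM (n = 22, SD) in mates, from 0 through 6.56 to 22.7 CPM, and 4.49 ± 3.50 CPM (n = 18, SD) in peers, from 0 through 3.92 to 14.5 CPM. Its log2 fold change was 0.88 with a standard error of 0.32 (edgeR p 0.00788, adjusted p 0.963), at a level close to that of astrocyte-like nuclei. In the Cpne7-led D2 cluster, where Htr2a was high, mates were at 233 ± 66.1 CPM (n = 22, SD) and peers at 207 ± 77.8 CPM (n = 18, SD), with a log2 fold change of 0.20 (SE 0.14, adjusted p 1.00 in edgeR). The other pair was Htr1b in the Pdyn-led D1 cluster, at 34.5 ± 10.2 CPM (n = 22, SD) in mates and 30.0 ± 9.10 CPM (n = 18, SD) in peers, with a log2 fold change of 0.26 (SE 0.11, edgeR p 0.0194, adjusted p 0.987).

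The remaining pairs of a gene and a spiny cluster had unadjusted p above 0.05. Htr1b had log2 fold changes of 0.18 in the Adora2a-led, 0.17 in the Col24a1-led, 0.30 in the Cpne7-led and -0.09 in the Foxp2-led cluster. Htr1f had 0.05 in the Adora2a-led, 0.28 in the Col24a1-led and -0.02 in the Pdyn-led cluster. Htr2a had 0.35 in the Pdyn-led, 0.05 in the Foxp2-led and -0.16 in the Col14a1-led cluster. Htr2c had 0.38 in the Pdyn-led, 0.22 in the Col24a1-led, 0.09 in the Adora2a-led, 0.12 in the Foxp2-led and -0.24 in the Cpne7-led cluster. Htr4 lay between -0.01 and 0.01 in 5 clusters and at -0.41 in the Dlk1-led cluster. Htr7 passed the filter in the Cpne7-led cluster alone, with a value of 0.15.

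The partner comparison was also made within each sex, and neither edgeR (0% of all genes) nor DESeq2 called a receptor gene. In females 2 of 7 genes over all nuclei, Htr1a and Htr1b, had an unadjusted edgeR p under 0.05, against 7.57% of all genes, and in males 0 of 7, against 1.41%. DESeq2 gave the same counts. Within classes edgeR gave 2 of 23 pairs in females (5.24% of all pairs) and 1 of 23 in males (2.9%). Within spiny clusters edgeR gave 2 of 25 in females (5.03%) and 1 of 25 in males (2.79%). DESeq2 had the same counts within classes, and 1 of 25 in each sex within spiny clusters. Htr1b in the Pdyn-led D1 cluster had 37.5 ± 7.28 CPM (n = 11, SD) in female mates, from 23.7 through a median of 38.5 to 51.7 CPM. Female peers had 26.1 ± 9.86 CPM (n = 8, SD) there, from 11.1 through 27.5 to 39.7 CPM (log2 fold change 0.44, SE 0.16, edgeR p 0.00734, adjusted p 0.915). Htr7 in glutamate neuron-like nuclei had 16.1 ± 7.81 CPM (n = 11, SD) in male mates and 8.61 ± 4.44 CPM (n = 10, SD) in male peers (log2 fold change 0.73, SE 0.31, edgeR p 0.0233, adjusted p 1.00). These male peers include male peer 5, with 0.485% glutamate neuron-like nuclei. Clusters of this class differed in Htr7, and the part of their mix in this value was not tested. The other pairs in females included Htr1b in D1 medium spiny neuron-like nuclei, with a log2 fold change of 0.35 (SE 0.14). Htr2a in the Cpne7-led cluster had 0.41 (SE 0.20). The last was Htr4 in glutamate neuron-like nuclei, with -0.91 (SE 0.35). Over all animals the Htr4 mean of that class was 5.54 CPM, below the 15.5 CPM of microglia-like nuclei. In males the spiny cluster pair was Htr2a in the Adora2a-led cluster, at 10.8 ± 6.66 CPM (n = 11, SD) in mates and 5.14 ± 3.88 CPM (n = 10, SD) in peers, a log2 fold change of 1.11 (SE 0.42, adjusted p 1.00 in edgeR).

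Females and males were compared in the same fits. No receptor gene was called over all nuclei, where 0.0146% of all genes were called by edgeR, and none of the 7 had an unadjusted p under 0.05 in edgeR or DESeq2, against 8.22% of all genes. In edgeR 1 of 7 had one without female peer 1, and 1 without male peer 5, fits whose share over all genes is not given. Within classes 0 of 23 pairs were called (0.0223% of all pairs) and 3 had an unadjusted p under 0.05 by edgeR, against 5.01% of all pairs, and likewise 3 by DESeq2. Htr7 in glutamate neuron-like nuclei was at 19.0 ± 10.2 CPM (n = 19, SD) in females, from 4.03 through 18.7 to 39.4 CPM, and 12.5 ± 7.34 CPM (n = 21, SD) in males, from 0 through 11.9 to 31.0 CPM. The log2 fold change of females over males was 0.64 with a standard error of 0.22 (edgeR p 0.00468, adjusted p 0.656). Glutamate neuron-like clusters differed in Htr7, and the part of their mix in this value was not tested. Htr2a in D2 medium spiny neuron-like nuclei was at 40.9 ± 13.3 CPM (n = 19, SD) in females and 56.6 ± 30.2 CPM (n = 21, SD) in males, with a log2 fold change of -0.45 (SE 0.18, edgeR p 0.0175, adjusted p 0.769). The Cpne7-led cluster, which holds most Htr2a of this class, made up 17.6 ± 4.65% (n = 19, SD) of D2 nuclei in females and 22.0 ± 8.38% (n = 21, SD) in males, up to 52.9% in male mate 2. Its part in the Htr2a difference was not tested. Htr1b in glutamate neuron-like nuclei was at 4.36 and 6.45 CPM, with a log2 fold change of -0.50 (SE 0.22, adjusted p 0.828 in edgeR). These Htr1b levels are near the 5.37 CPM of microglia-like nuclei. In the spiny clusters none of 25 pairs was called for sex by edgeR (0.02% of all pairs) or DESeq2, with 2 and 1 at an unadjusted p under 0.05, against 4.84% of all pairs in edgeR. The 2 in edgeR were Htr2c in the Cpne7-led cluster, with a log2 fold change of females over males of 0.47 (SE 0.20), and Htr2a in the Col14a1-led cluster, with -0.34 (SE 0.17).

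Whether the partner effect differed between the sexes was asked with an interaction term. No receptor gene was called over all nuclei (0% of all genes, with 1.91% under an unadjusted 0.05) or in a class (0% of all pairs, with 2.82%) or spiny cluster (0% of all pairs, with 3.15%). Unadjusted p under 0.05 was found for 1 of 7 genes over all nuclei, Htr1a, for 3 of 23 pairs within classes and for 1 of 25 within spiny clusters, by both edgeR and DESeq2. Over all nuclei that count was 0 without male mate 2, without male peer 5, and with blocks of library numbers or the glutamate neuron-like share as a covariate. One of the class pairs was Htr2a in eccentric medium spiny neuron-like nuclei, with an interaction of 0.59 (SE 0.22, adjusted p 1.00 in edgeR), and the spiny cluster pair was Htr2a in the Foxp2-led cluster of that class, with 0.63 (SE 0.25). Htr4 in glutamate neuron-like nuclei was at 4.03 CPM in female mates, 8.16 CPM in female peers, 6.17 CPM in male mates and 4.43 CPM in male peers. Its interaction was -1.25 (SE 0.48, adjusted p 1.00 in edgeR). These Htr4 levels lie below the means of microglia-like and endothelial-like nuclei, 15.5 and 13.6 CPM. Htr7 in glutamate neuron-like nuclei was at 17.1, 21.6, 16.1 and 8.61 CPM in the same order of groups, an interaction of -1.02 (SE 0.43, adjusted p 1.00 in edgeR). The part of the mix of clusters in this Htr7 value was likewise not tested.

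The rest of the serotonin pathway was read from a list of 53 genes, of which 44 were matched and 39 passed the filter over all nuclei. The list held other receptors, enzymes and transporters of serotonin, the G protein, cyclase, kinase and channel genes of the 3 signalling arms, and receptor partners. None of the 39 was called for partner by edgeR, with 23 log2 fold changes above 0 and 16 below, a median of 0.02 and 2 unadjusted p under 0.05 (5.13%, against 7.17% of all genes). The genes of lowest p were Adarb1, the gene of an RNA-editing enzyme (log2 fold change 0.16, SE 0.07), Maoa, the gene of monoamine oxidase A, which breaks serotonin down (-0.23, SE 0.11), and the protein kinase C gene Prkcb (0.17, SE 0.09), with edgeR adjusted p of 0.693, 0.693 and 0.695. Within classes none of 225 pairs of a pathway gene and a class was called. The log2 fold change was above 0 in 137 pairs and below 0 in 88, with a median of 0.04. An unadjusted p under 0.05 was found in 16 pairs (7.11%, against 5.53% of all pairs), with 15 higher and 1 lower in mates. Their lowest adjusted p in edgeR was 0.265.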

How the data were processed

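Nuclei were isolated from frozen punches of each animal and sequenced on the 10x Genomics platform, per the labels. The authors deposited raw UMI counts per gene and nucleus for 40 libraries, and Cell Ranger 3.1.0 is named in the submitters' processing notes. The genome build, and whether intronic reads were counted, are not given in the sources used here. Receptor symbols were matched in any case, and no promoter or protein sequence was used.

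Barcodes under 500 UMIs (6375) or above 5% mitochondrial UMIs (2148) and called doublets (7608, 4.09%) were removed from 194518. All 6375 under 500 UMIs came from male mate 2, which was deposited with 12519 barcodes, the lowest at 206 UMIs. The other libraries held no barcode under 500 UMIs as deposited. Nuclei were clustered (2000 variable genes without the receptors, 30 principal components, Leiden resolution 1). A cluster was named where at least 3 markers of its best list had a log2 fold of at least 1 over all other nuclei. It stayed unnamed where a list of another lineage had more than 0.5 of that list's mean log2 fold. The same held where another list had more of the 10 leading genes. Of the 137 markers on 19 lists 123 were found. Ties between lists were settled by a rule added after the clusters were seen. Counts were summed per animal. A class was tested where every group kept at least 6 animals with 20 nuclei, which left out cholinergic interneuron-like and differentiating oligodendrocyte-like nuclei. EdgeR 4.0.16 (R 4.3.3) was run with TMM factors, filterByExpr and 1 mean per group, with Benjamini-Hochberg adjustment over all genes of a fit. The partner contrast is the mean of both sexes. Standard errors (SE) of edgeR estimates were derived as the absolute log2 fold change divided by the square root of the test's F statistic. They are therefore not a measure of spread separate from the p-value. The same code was tested on simulated data.

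The receptors, the pathway list and the tests were chosen with earlier results of these data known. All receptors were named for partner type wherever they passed the filter, and otherwise at an unadjusted edgeR p under 0.05, and of the pathway list those called and the 3 of lowest p. Alternatives were relative log expression factors, DESeq2 1.42.0, no filter, leaving out male mate 2 or female peer 1, doublets kept, blocks of 10 library numbers, the glutamate neuron-like share of UMIs as a covariate, a minimum of 50 nuclei, and Leiden resolution 2. Leaving out male peer 5, and running the alternatives in spiny clusters, were added after seeing the data. P-values treat animals as independent, although cage partners may both be in the set.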

Additional observations from a re-analysis of the deposited data

Results flagged for a closer look

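Within groups of up to 10 animals, female peers and male peers, 62 sets of receptor values were searched for an animal far from the others of its group. In 9 sets (14.5%) the gap to the next animal was a large part of the group's range, where chance gives about 5% of independent sets. These sets were not independent, since the same 18 peers recur across genes and across all nuclei and their classes, so the 2 shares are not a fair comparison. In all 9 the animal was the highest of its group, and 4 animals provided them.

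Male peer 5, the library with 0.485% glutamate neuron-like nuclei, was at 75.9 CPM of Htr2c over all nuclei (next male peer 47.7 CPM). In its D2 medium spiny neuron-like nuclei Htr2c was at 121 CPM (next 70.0 CPM) and Htr1b at 45.8 CPM (next 30.5 CPM). Female peer 4 was at 279 CPM of Htr4 in D2 (next female peer 209 CPM) and 177 CPM in D1 medium spiny neuron-like nuclei (next 85.1 CPM), resting on 364 and 266 UMIs. Female peer 1, the library with the highest share of unnamed nuclei, was at 90.6 CPM of Htr2c in glutamate neuron-like nuclei (next 47.2 CPM) and 56.5 CPM in eccentric medium spiny neuron-like nuclei (next 26.7 CPM), resting on 58 and 32 UMIs. Female peer 5 was at 41.4 CPM of Htr2c in D1 medium spiny neuron-like nuclei (next 18.6 CPM) and 25.9 CPM of Htr1a in glutamate neuron-like nuclei (next 15.2 CPM, 32 UMIs). Of the 9, 5 concern Htr2c, and the causes were not tested.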

How the results depend on the processing

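The counts of receptor genes called for partner (all nuclei, classes and spiny clusters), sex and interaction (all nuclei and classes) were 0 under each alternative run for them. For the comparisons within 1 sex, and for sex and interaction in spiny clusters, the one alternative tabulated was DESeq2, which also called 0. The lowest adjusted p for partner over all nuclei ran from 0.519 without male peer 5 to 0.844 without male mate 2. Of the recomputed partner log2 fold changes 250 kept their sign, none of them past the threshold. The 19 that changed sign were all small. Over all nuclei Htr2c (main value -0.0023) became 0.000279 with no filter, 0.0193 without male mate 2, 0.0371 without female peer 1, 0.0891 without male peer 5, 0.122 with blocks of library numbers and 0.0268 with the glutamate neuron-like share. In glutamate neuron-like nuclei Htr2c became -0.000167 with relative log expression factors and -0.0407 with DESeq2, and Htr1b -0.0179 without female peer 1 and -0.0621 with blocks. In eccentric nuclei Htr2a became -0.00461 without female peer 1, and Htr4 0.0158 without female peer 1 and 0.0344 without male peer 5. Htr4 in D1 nuclei became -0.0168 with doublets kept and -0.0469 with blocks, and in D2 nuclei -0.00461 without male mate 2, -0.00667 without female peer 1, -0.00927 with doublets kept and -0.0460 with blocks. The cause was not tested. Levels moved by more than 1 SD in 2 recomputed values, both with doublets kept: Htr4 in astrocyte-like nuclei (5.75 CPM, main value 1.59 CPM) and Htr1f in cholinergic interneuron-like nuclei (0.289 CPM, main value 0 CPM). No mean level moved that far when male mate 2 and female peer 1 were left out together. The filter on low counts left Htr1a tested in 1 class and Htr7 in 2. No paired analysis was possible because the labels name no partners and the replicate numbers only name animals within a group. The order of library numbers was not used to infer partners.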

Other observations

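Of the serotonin receptor genes outside the 7, Htr3a, which encodes the ion channel receptor, was among the leading genes of the unnamed Vip-led cluster, at 135 ± 58.1 CPM (SD, n = 39), from 39.7 to 351 CPM. The next cluster was that of immature neuron-like nuclei at 21.1 ± 20.0 CPM (SD, n = 40). Htr5a was spread over spiny and glutamate nuclei, at 21.4 ± 5.04 CPM (SD, n = 40) in D2, 20.2 ± 4.25 CPM (SD, n = 40) in D1 and 20.1 ± 7.02 CPM (SD, n = 40) in glutamate neuron-like nuclei. Transcripts that mark serotonin neurons were nearly missing from these nuclei, with 118 UMIs of the synthesis enzyme gene Tph2 and 17 UMIs of the transporter gene Slc6a4 in all libraries together. Maoa was highest in endothelial-like nuclei at 318 ± 119 CPM (SD, n = 37), and Ddc, the gene of the decarboxylase of the synthesis path, likewise at 80.6 ± 42.6 CPM (SD, n = 37).

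Genes of the signalling arms had their highest named class as follows. Gnal and Rgs9 were highest in D2 medium spiny neuron-like nuclei, at 1709 ± 131 and 1569 ± 292 CPM (SD, n = 40), and Adcy5 and Ppp1r1b in D1 nuclei, at 2278 ± 204 and 1591 ± 299 CPM (SD, n = 40). The phospholipase C gene Plcb1 was highest in eccentric nuclei, at 277 ± 66.0 CPM (SD, n = 40), and the channel gene Kcnj3 in glutamate neuron-like nuclei, at 95.8 ± 12.6 CPM (SD, n = 40).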
